A study of Rattus norvegicus with 224 samples.

Results

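Ypel3, Cdo1, Glul and Fam180a were followed across a factorial culture experiment on rat aortic smooth muscle cells. The 4 genes were chosen by a measured value, their lower scores in insulin-treated than in vehicle-treated cells of this experiment, and were located by their symbols in the platform's probe annotation. Each had 1 probe, so the set held 4 probes of 11575 measured and 4 genes of the 6502 that the annotation named. All insulin against vehicle differences of these genes are therefore given as a description with no test, and tests are kept for drug, glucose, hour and interactions.

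The cells came from aortic explants of newborn (1-day-old) rats and were passaged in culture and made quiescent before treatment. All groups shared this. Each dish received 100 nM insulin or its buffer vehicle, in medium with 25 or 5 mM glucose, and then rapamycin at 0.01, 1 or 100 ng/mL, paclitaxel at 0.01, 1 or 1000 ng/mL, or the solvent DMSO alone, for 24 or 6 h. The 56 groups held 4 arrays each, 1 per replicate run (A, B, C and D), which made 224 arrays. On each array, Cyanine-5 marked the RNA of the cells and Cyanine-3 a common pup reference. The labels do not say whether runs came from separate animals, so p-values measure the spread between these arrays.

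Insulin acts through its receptor and the kinase AKT, which keeps FOXO transcription factors out of the nucleus and so lowers the genes that these factors activate. AKT also raises the activity of the kinase complex mTORC1, which rapamycin inhibits, while paclitaxel stabilises microtubules. Ypel3 encodes a small zinc-binding protein of the yippee family that is linked to growth arrest in human cells. Cdo1 encodes cysteine dioxygenase, which oxidises cysteine and opens the route to taurine. Glul encodes glutamine synthetase, which joins ammonia to glutamate and is known as a FOXO target in other cell types.

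The deposited values are standardized scores. Their SD lay between 0.999994 and 1.00001 in each array, with a mean near 0, so a difference is counted in array standard deviations (array SDs). The sources used here give neither the log base beneath nor whether genes were also scaled. In the deposited scores genes did not have equal SDs, with 1.22 for Glul and 2.24 for Cdo1 over the 224 arrays. Feature means over all arrays lay between -0.207 and 0.217. A positive score thus marks a value above about that gene's own average over these arrays, not above the pup reference. Higher scores likely stand for more RNA in the cells relative to that reference, by the dyes in the labels. This direction is not settled. Pairs of arrays correlated down to r = -0.526, and 1.46% of pairs lay under -0.3; with the sign turned, every difference below would turn with it. Features were centred near 0 over all arrays, so the scores show no order of abundance among genes and no level that would check the cell type. Of 13 smooth muscle markers 11 were measured, while Acta2 and Myh11 were not analysed here. Markers of endothelial cells (5 of 8 measured), leukocytes (4 of 8), adventitial fibroblasts (4 of 8) and adipocytes (6 of 7) were followed beside them. At 0.01 ng/mL rapamycin, 6 h and 25 mM glucose, the pair of run A arrays labelled insulin and vehicle correlated at r = 0.99993, against 0.705 for the next highest pair of arrays. Ypel3 read -1.138 and Glul -1.298 in both, so this pair adds a difference of 0 to their insulin averages. The values below that rest on these arrays include them unless stated otherwise, and values without them are given beside the main results they enter.

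Promoter windows from 250 bases before to 50 bases after an annotated start were available for 3 of the 4 genes in the RefSeq table (GRCr8), 4 windows in all. The FOXO element GTAAACA and the shorter core AAAACA of insulin response elements were searched on both strands. The window of Ypel3 (chr1:190814706-190815005, plus strand) held 1 GTAAACA, whose first base lay at position 12 counted from the annotated start, and that of Fam180a (chr4:64975127-64975426, minus strand) held 2 AAAACA, with first bases at -195 and -26 from it. These windows are shown because they hold the matches, which are in capitals.
Ypel3: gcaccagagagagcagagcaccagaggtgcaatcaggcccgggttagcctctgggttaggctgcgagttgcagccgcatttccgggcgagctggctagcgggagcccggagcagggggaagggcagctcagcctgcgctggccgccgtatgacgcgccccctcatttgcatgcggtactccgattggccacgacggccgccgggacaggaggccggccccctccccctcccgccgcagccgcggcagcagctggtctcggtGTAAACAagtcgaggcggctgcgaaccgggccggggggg
Fam180a: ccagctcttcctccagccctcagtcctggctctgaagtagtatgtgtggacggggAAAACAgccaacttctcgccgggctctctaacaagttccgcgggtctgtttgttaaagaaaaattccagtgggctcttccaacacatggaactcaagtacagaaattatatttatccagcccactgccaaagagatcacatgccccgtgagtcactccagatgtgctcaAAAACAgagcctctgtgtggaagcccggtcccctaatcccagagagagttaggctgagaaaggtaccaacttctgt
The element GTAAACA was present in 3.78% of all 33469 windows of 300 bases and AAAACA in 22.9%. The Glul windows (chr13:68519250-68519549 and chr13:68575816-68576115, plus strand) held 0 matches to these letters. Cdo1 is named only.

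With insulin at 6 h, all 4 genes sat below their vehicle controls. The plot by hour and insulin arm shows the 56 arrays of each arm. In this comparison 7.07% of all probes were called (adjusted p under 0.05) and 3.48% of all probes were called lower, but since the genes were picked on this contrast nothing is read from their own place in it.

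**Figure D1:**
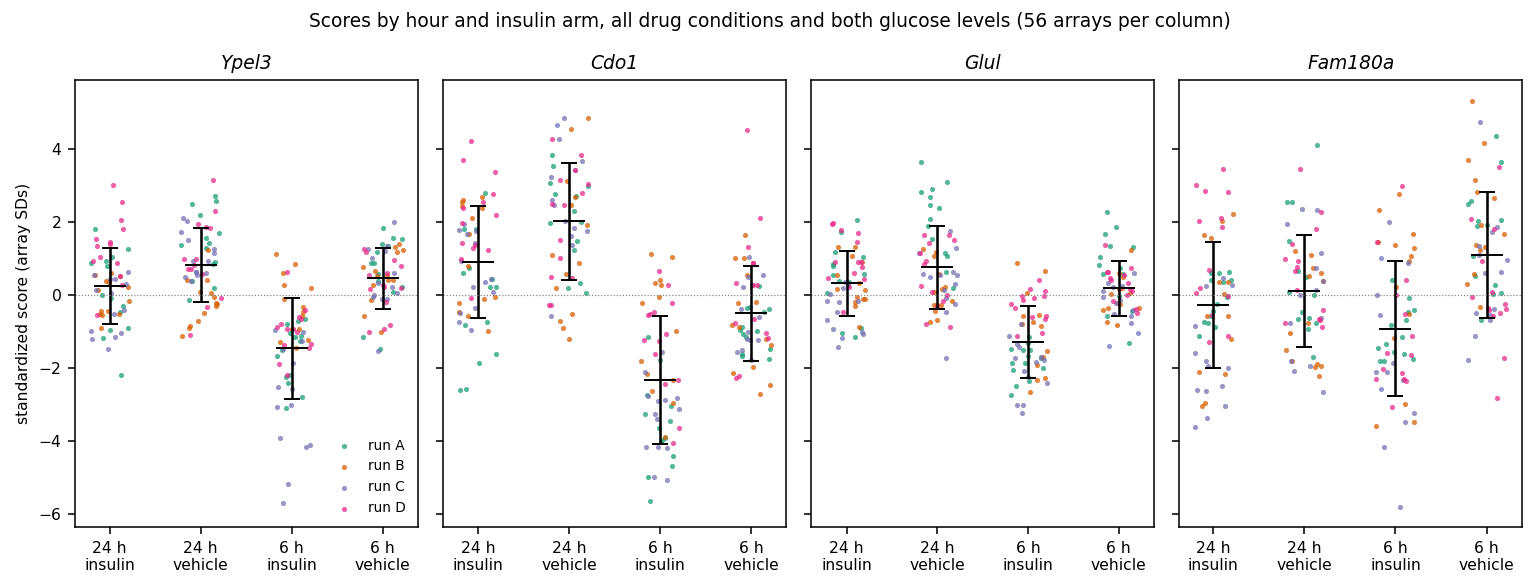
Standardized scores (array SDs, y axis) of the 4 genes in insulin and vehicle cells at 24 h and 6 h (x axis), with all drug conditions and both glucose levels pooled, 56 arrays per column. Points are arrays coloured by run, and bars are the mean ± SD; the 6 h insulin column lies lowest for each gene and overlaps its vehicle column.

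Ypel3 scores ran from -5.70 over a median of -1.18 to 1.11 in 56 insulin arrays, and from -1.53 over 0.534 to 1.99 in 56 vehicle arrays. The insulin mean was -1.45 ± 1.38 and the vehicle mean 0.460 ± 0.83 (SD, n = 56 each), a difference of -1.91 ± 0.190 (SE). The bulk of the insulin arrays lay under the vehicle median, yet the groups overlapped between -1.53 and 1.11. Insulin was lower than vehicle of the same run, drug and glucose in 50 of 56 pairs.

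Cdo1 ran from -5.64 over -2.67 to 1.11 with insulin and from -2.71 over -0.785 to 4.52 with vehicle. The difference was -1.82 ± 0.275 (SE), and 45 of 56 pairs were lower with insulin. The insulin median thus lay beside the lowest vehicle array, while the insulin arrays themselves were spread over most of the vehicle range.

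Glul ran from -3.23 over -1.44 to 0.868 with insulin and from -1.39 over 0.144 to 2.28 with vehicle. Its difference of -1.47 ± 0.166 (SE) was the smallest of the 4 and had the smallest error, and 50 of 56 pairs were lower with insulin. About as many insulin arrays lay under the lowest vehicle array as above it, since the insulin median was close to that array.

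Fam180a ran from -5.80 over -1.16 to 2.98 with insulin and from -2.82 over 1.01 to 5.32 with vehicle. Its difference of -2.01 ± 0.302 (SE) was the largest of the 4 and had the widest error, with 45 of 56 pairs lower. The arms overlapped over more than the span between their medians. No role is given here for Fam180a.

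All 4 differences were below 0 in each of the 4 runs at 6 h, but their sizes differed. Ypel3 gave -2.28 in run A, -0.801 in run B, -3.36 in run C and -1.21 in run D. Cdo1 gave -2.70, -0.294, -2.81 and -1.49 in the same runs, and Glul -2.54, -0.994, -1.72 and -0.611. Fam180a varied less among them, with -2.62, -2.03, -2.30 and -1.11. Without the near-identical arrays the 6 h differences were -1.94 for Ypel3, -1.85 for Cdo1, -1.48 for Glul and -2.04 for Fam180a.

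Among the 7473 probes with 1 gene symbol, these differences held positions 1 (Fam180a), 2 (Ypel3), 3 (Cdo1) and 11 (Glul) from the lowest. The rule that named the members has no threshold. Psen2, at -1.67, came next after Cdo1, and Glul stood between Tcp11l2 at -1.47 and Gkap1 at -1.45; these neighbours are named for their place alone, after their values were seen.

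Cells given DMSO in place of a drug are part of the 6 h averages above, and on these fewer arrays the genes were also lower with insulin. There the 6 h insulin difference was -1.75 ± 0.503 for Ypel3, -1.85 ± 0.729 for Cdo1, -1.31 ± 0.438 for Glul and -2.50 ± 0.799 for Fam180a (SE, 8 arrays per arm). In DMSO cells at 5 mM glucose, Ypel3 read -2.79, -1.28, -3.0 and -0.650 in runs A to D with insulin, against 1.54, 1.39, -0.100 and 0.792 with vehicle. The insulin arrays all lay below the vehicle arrays there. At 25 mM glucose it read -1.50, 1.11, -0.958 and -0.877 with insulin, against 0.880, -0.143, -1.53 and 1.18 with vehicle, and the arms overlapped. The insulin difference of Ypel3 in DMSO cells was thus -0.652 at 25 mM and -2.84 at 5 mM glucose. Glul differed less between the glucose levels, with -1.24 at 25 mM and -1.38 at 5 mM. Fam180a ran the other way, with -3.72 at 25 mM and -1.27 at 5 mM. Cdo1 gave -0.948 at 25 mM and -2.745 at 5 mM. These contrasts rest on 4 arrays per arm at each level and were not tested. Their order was not shared by all drug conditions. At 100 ng/mL rapamycin Ypel3 gave -2.90 at 25 mM and -1.63 at 5 mM. At 1 ng/mL paclitaxel Fam180a gave -1.10 at 25 mM and -5.02 at 5 mM. At 1 ng/mL rapamycin Cdo1 gave -1.72 at 25 mM and -1.49 at 5 mM. Some other conditions kept the DMSO order for each of these genes.

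Across the drug conditions the 6 h insulin difference stayed below 0 for each gene in each of the 7 conditions. For Ypel3 it was -1.75 in DMSO, -1.26, -2.63 and -2.27 at 0.01, 1 and 100 ng/mL rapamycin, and -2.29, -1.44 and -1.75 at 0.01, 1 and 1000 ng/mL paclitaxel. For Glul it lay between -1.80 (1 ng/mL paclitaxel) and -0.966 (0.01 ng/mL rapamycin). Cdo1 spanned -2.45 (1000 ng/mL paclitaxel) to -0.810 (100 ng/mL rapamycin). Fam180a spanned -3.06 (1 ng/mL paclitaxel) to -0.660 (1000 ng/mL paclitaxel), the widest spread of the 4. In each condition the 8 pairs scattered with an SD of 0.984 to 3.02, so single conditions are imprecise. Without the near-identical pair, the differences at 0.01 ng/mL rapamycin were -1.44 for Ypel3, -1.82 for Cdo1, -1.10 for Glul and -1.66 for Fam180a, over 7 pairs.

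**Figure D2:**
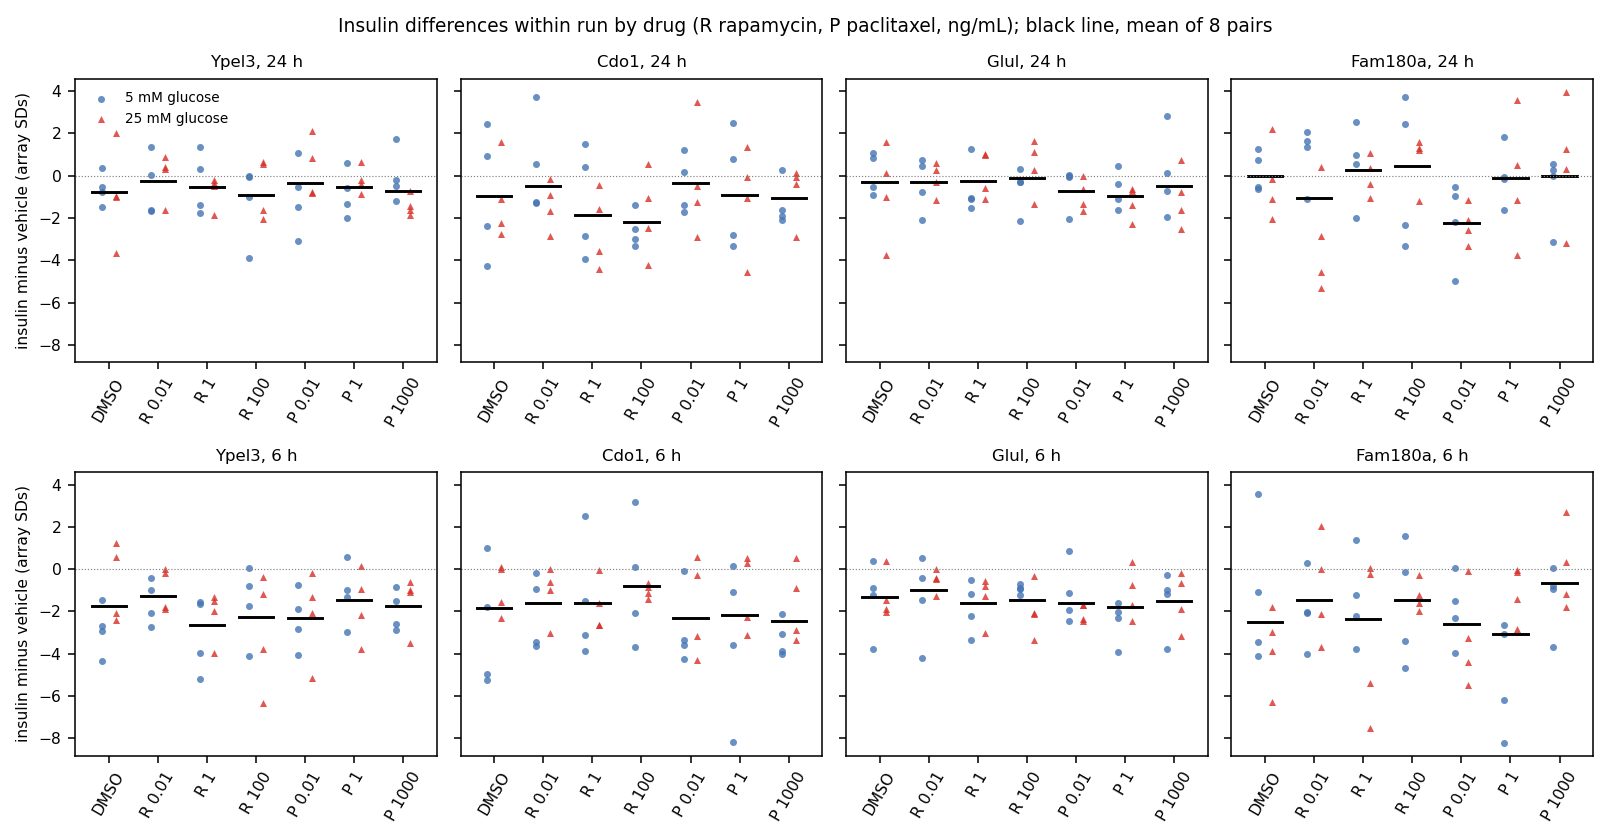
Insulin minus vehicle differences (array SDs, y axis) within run and glucose level for each drug condition (x axis), at 24 h in the upper row and 6 h in the lower row, 8 pairs per condition with the mean as a black line. The 6 h means lie below 0 in all conditions, while at 24 h those of Fam180a lie on both sides of 0.

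Whether a drug altered the insulin difference was tested between the top and the lowest dose of each drug, which leaves out the DMSO arrays. The percent of all probes called was 0 for rapamycin and 0 for paclitaxel at each hour by limma, and 0 of 4 genes were called. For Ypel3 the insulin difference at 6 h was -2.27 at 100 ng/mL rapamycin and -1.26 at 0.01 ng/mL, a change of -1.0 ± 0.712 (SE, 95% interval -2.41 to 0.402), or -0.843 without the near-identical arrays. For Cdo1 the same change was -1.70 ± 1.03 at 24 h (interval -3.73 to 0.339) and 0.787 ± 1.03 at 6 h (interval -1.25 to 2.82; 0.978 without those arrays). For Fam180a under paclitaxel, 1000 against 0.01 ng/mL, it was 2.22 ± 1.13 at 24 h and 1.95 ± 1.13 at 6 h. These intervals are wide beside the insulin differences themselves, so a change of about the size of the insulin difference may not be detectable at this number of arrays.

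At 24 h the insulin differences were smaller than at 6 h for all 4 genes, and the runs no longer shared a sign. Over all probes 3.98% were called at 24 h, 1.42% toward lower scores. Cdo1 had the largest of the 4, -1.11 ± 0.275 (SE), with scores from -2.60 over 0.962 to 4.21 with insulin and from -1.20 over 2.17 to 4.85 with vehicle. It held position 9 from the lowest and was lower with insulin in 40 of 56 pairs. Ypel3 differed by -0.575 ± 0.190 (39 of 56 pairs), Glul by -0.442 ± 0.166 (36 of 56) and Fam180a by -0.383 ± 0.302 (31 of 56), at positions 115, 242 and 349. The arms overlapped over most of their range for these 3 genes.

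The 24 h averages came mainly from runs A and C. Ypel3 differed by -1.35 in run A and -1.37 in run C, against 0.132 in run B and 0.280 in run D. Glul showed -1.58 and -0.806 in runs A and C, against 0.173 and 0.443 in B and D. Cdo1 showed -2.14 and -2.08 in A and C, with -0.296 in B and 0.0712 in D. Fam180a followed the same split, -0.616 and -1.72 against 0.30 and 0.502 in B and D. The difference between hours in the insulin effect was not tested, since it is built from the values that chose the genes.

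Of the tested factors, the hour gave the most calls among the 4 genes. Each hour comparison averages both arms and so holds the insulin arrays whose low scores chose the genes. The hour calls are therefore not independent of that choice. Cdo1, Glul and Ypel3 were higher at 24 h than at 6 h over all conditions by limma. In that comparison 41.3% of all probes were called and 19.5% were called higher, so a call by itself is common here. For these 3 the hours lay closer together with vehicle than with insulin, by the arm means below. Fam180a was not called. Fewer cells of a type and less RNA per cell cannot be told apart in these bulk cultures.

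Cdo1 ran from -2.60 over 1.63 to 4.85 in 112 arrays at 24 h and from -5.64 over -1.21 to 4.52 in 112 arrays at 6 h. The difference was 2.87 ± 0.195 (SE, adjusted p = 1.33e-29 by limma), above 0 in 4 of 4 runs, between 2.05 in run B and 3.59 in run C. The middles of both hours were far apart, and 1 array at 6 h (4.52) reached the upper end of the 24 h range, above the next at 2.12.

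Glul ran from -1.72 over 0.455 to 3.65 at 24 h and from -3.23 over -0.408 to 2.28 at 6 h. It was higher by 1.09 ± 0.117 (SE, adjusted p = 2.87e-15 by limma), in 4 of 4 runs. With insulin it averaged 0.318 at 24 h and -1.28 at 6 h, while with vehicle it averaged 0.759 at 24 h and 0.185 at 6 h. The ranges of the hours overlapped over most of their length.

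Ypel3 ran from -2.18 over 0.542 to 3.14 at 24 h and from -5.70 over -0.366 to 1.99 at 6 h, a difference of 1.03 ± 0.135 (SE, adjusted p = 2.32e-11 by limma). Run B went the other way, with -0.219, beside 1.20 in A, 1.62 in C and 1.54 in D. With insulin Ypel3 averaged 0.250 at 24 h and -1.45 at 6 h, while with vehicle it averaged 0.825 at 24 h and 0.460 at 6 h. With the 4 runs as the unit the calls of Ypel3 (adjusted p = 0.124) and Glul (0.0542) were lost and that of Cdo1 held (0.0220). Cdo1 lay higher at 24 h in both arms, with insulin at 0.904 against -2.32 at 6 h and with vehicle at 2.02 against -0.500.

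Fam180a averaged -0.0783 ± 1.64 at 24 h and 0.0868 ± 2.05 at 6 h (SD, n = 112 each), a difference of -0.165 ± 0.214 (SE, adjusted p = 0.578 by limma). Its runs disagreed, with -1.58 in run B and 1.35 in run D, and so did the arms. With insulin it averaged -0.270 at 24 h and -0.921 at 6 h, with vehicle 0.113 at 24 h and 1.09 at 6 h. Without run D it was called lower at 24 h, by -0.671 (adjusted p = 0.0173), while without run B the difference was 0.305 (0.318). Without the near-identical arrays the hour differences were 2.87 for Cdo1, 1.07 for Glul, 1.02 for Ypel3 and -0.175 for Fam180a, with the same calls.

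Within single treatments the hour difference was seen for Cdo1 each time. In DMSO cells, where 7.24% of probes were called and 4.31% called higher, 3 of 4 genes were called higher at 24 h by limma. These were Cdo1 by 2.54 (adjusted p = 2.81e-04), Ypel3 by 1.27 (0.0132) and Glul by 1.03 (0.0221). At 100 ng/mL rapamycin (9.71% called, 4.39% higher) the same 3 were called, Cdo1 by 3.37 (2.61e-07), Ypel3 by 1.44 (0.00251) and Glul by 0.948 (0.0321). At 1000 ng/mL paclitaxel (8.34% called, 4.45% higher) Cdo1 was higher by 2.85 (1.73e-05) and Glul by 1.37 (9.98e-04), while Ypel3 gave 0.724 ± 0.356 (0.213). In DMSO cells the calls of Ypel3 and Glul were lost without run A, C or D, and all 3 with the runs as the unit. Glul was also not called there with the compared groups fitted alone (adjusted p = 0.116). At 100 ng/mL rapamycin both were lost without run C or D, and Glul also without run B (adjusted p = 0.101).

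Some cell type markers were called between hours as well, in a comparison where 41.3% of all probes were called. Of 11 smooth muscle markers measured, 7 were lower at 24 h and 0 higher, with Myl9 at -2.68, Tagln at -1.73 and Tpm2 at -1.65 array SDs. This average includes the drug arrays. In DMSO cells Myl9 (-2.20), Tpm2 (-1.51) and Tpm1 (-1.06) were called lower at 24 h and Tagln was not, beside 7.24% of all probes. At 1000 ng/mL paclitaxel the hour differences were -5.34 for Myl9 and -4.67 for Tagln, beside 8.34% called. At 24 h that dose lay below DMSO for Myl9 (-4.58), Tagln (-4.30) and Vcl (-1.92), among others, beside 1.32% called. The sum of the 11 scores ran from -27.4 to 6.29 over the 112 arrays at 24 h and from -5.79 to 13.1 over those at 6 h. Among 4 adventitial fibroblast markers 2 were higher at 24 h, Dcn by 1.22 and Pdgfra by 0.856, and among 4 leukocyte markers Cd14 was higher by 0.394. Of 5 endothelial and 6 adipocyte markers 0 were called. Their part in the hour difference of Cdo1, Glul and Ypel3 was not tested. With insulin at 6 h, Vcl was called higher (0.529) and Lmod1 (-0.587) and Cd14 (-0.460) lower. Of the other markers 0 were called, beside 7.07% of all probes called. The smooth muscle sum then ran from -5.79 over 4.57 to 12.4 with insulin and from -3.93 over 6.21 to 13.1 with vehicle, arms that overlapped nearly fully, and its part in the insulin differences was not tested.

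**Figure D3:**
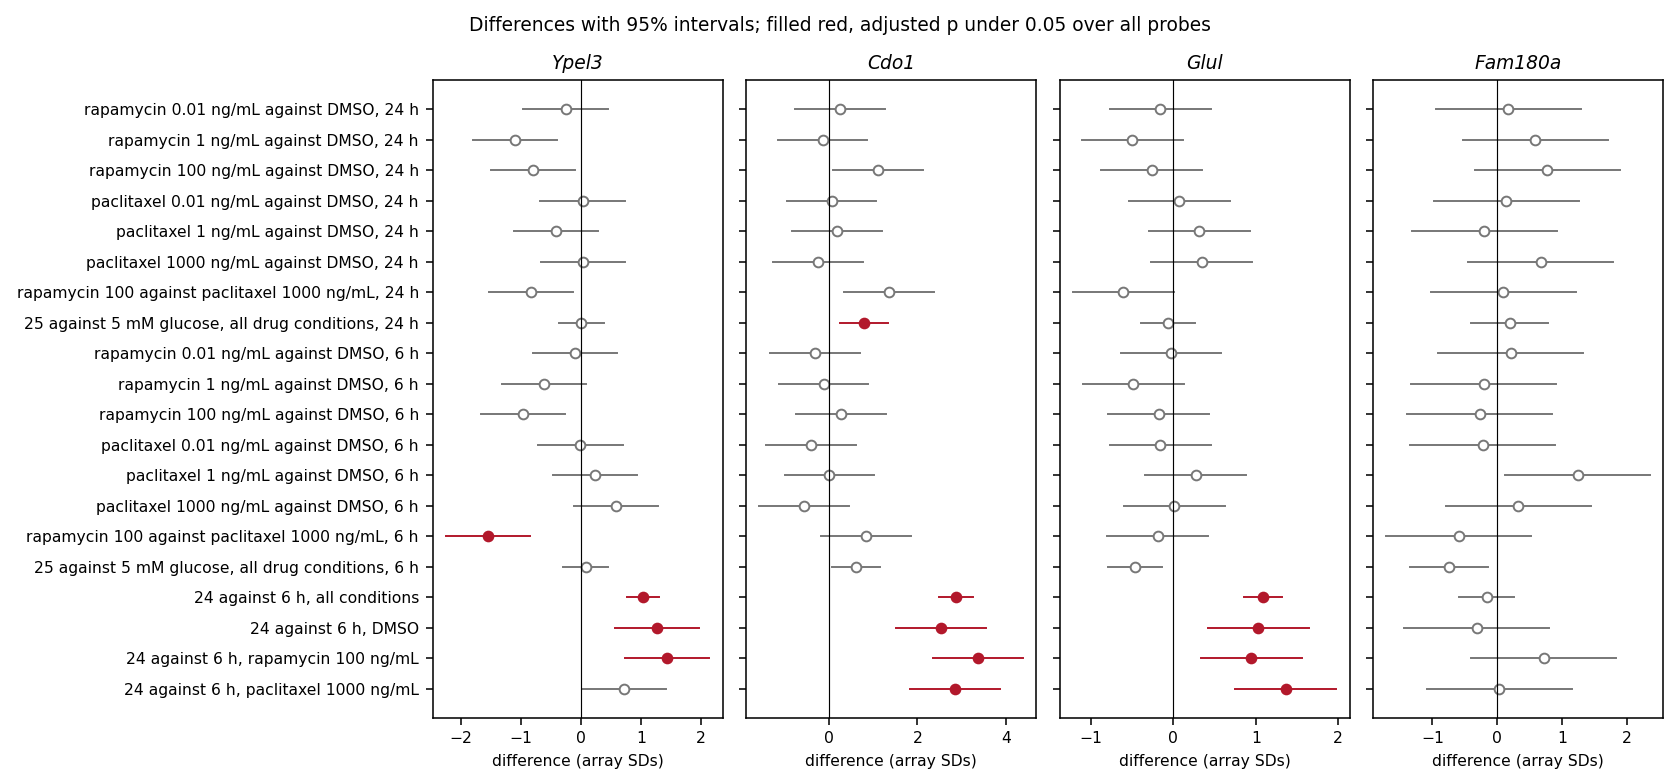
Differences (array SDs, x axis) with 95% intervals for each gene in 20 tested comparisons (rows), each as the first named condition minus the second. Filled red points had an adjusted p under 0.05 over 11575 probes, and they sit mainly in the 24 against 6 h rows of Ypel3, Cdo1 and Glul.

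Of the drug comparisons, 1 called a member. Ypel3 was lower at 100 ng/mL rapamycin than at 1000 ng/mL paclitaxel at 6 h, where 6.72% of probes were called and 2.74% called lower. It ran from -5.70 over -1.0 to 1.57 in 16 rapamycin arrays and from -1.49 over 0.294 to 1.99 in 16 paclitaxel arrays. The difference was -1.55 ± 0.356 (SE, adjusted p = 0.00117 by limma) and lay below 0 in 4 of 4 runs, -1.21 in A, -1.26 in B, -2.48 in C and -1.27 in D. Without run C it was -1.25 with an adjusted p of 0.0621. The ranges overlapped, and the doses compared are the top doses of each drug, which differ. Of the cell type markers measured, Vcl alone was called here (1.06 higher under rapamycin), and its part was not tested.

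The same order held in both insulin arms. With insulin, Ypel3 at 6 h averaged -2.47 ± 1.66 at 100 ng/mL rapamycin and -0.664 ± 0.775 at 1000 ng/mL paclitaxel (SD, n = 8 each). With vehicle it averaged -0.209 ± 1.01 under rapamycin and 1.09 ± 0.668 under paclitaxel. The lowest of its 28 combinations of drug, hour and insulin arm was 100 ng/mL rapamycin with insulin at 6 h, where all 8 arrays lay between -5.70 and -0.927. At 24 h the difference between the drugs was -0.834 ± 0.356 (adjusted p = 0.166 by limma, 6.62% of probes called).

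Against DMSO, Ypel3 lay lower at the upper rapamycin doses without passing the test. At 6 h it averaged -0.372 ± 1.45 in DMSO, -0.471 ± 1.03 at 0.01, -0.985 ± 1.76 at 1 and -1.34 ± 1.77 at 100 ng/mL rapamycin (SD, n = 16 each). At 24 h the averages were 0.895 ± 1.13 in DMSO and 0.639 ± 0.897, -0.209 ± 0.732 and 0.101 ± 1.09 at the rising doses. The 4 runs shared the sign at 1 and 100 ng/mL at both hours. The difference from DMSO was -0.970 ± 0.356 at 100 ng/mL and 6 h (adjusted p = 0.0983 by limma), where 5.08% of probes were called, and -0.793 ± 0.356 at 24 h (0.292), where 2.25% were called. At 1 ng/mL it was -0.613 ± 0.356 at 6 h (0.532, 1.54% called) and -1.10 ± 0.356 at 24 h (0.0930, 1.47% called). The last passed the threshold with run by hour as the block (0.0427) and without run B (-1.45, 0.0300). At 0.01 ng/mL it was -0.255 at 24 h and -0.0999 at 6 h (0.00564 without the near-identical arrays), and 0% of probes were called at either hour.

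**Figure D4:**
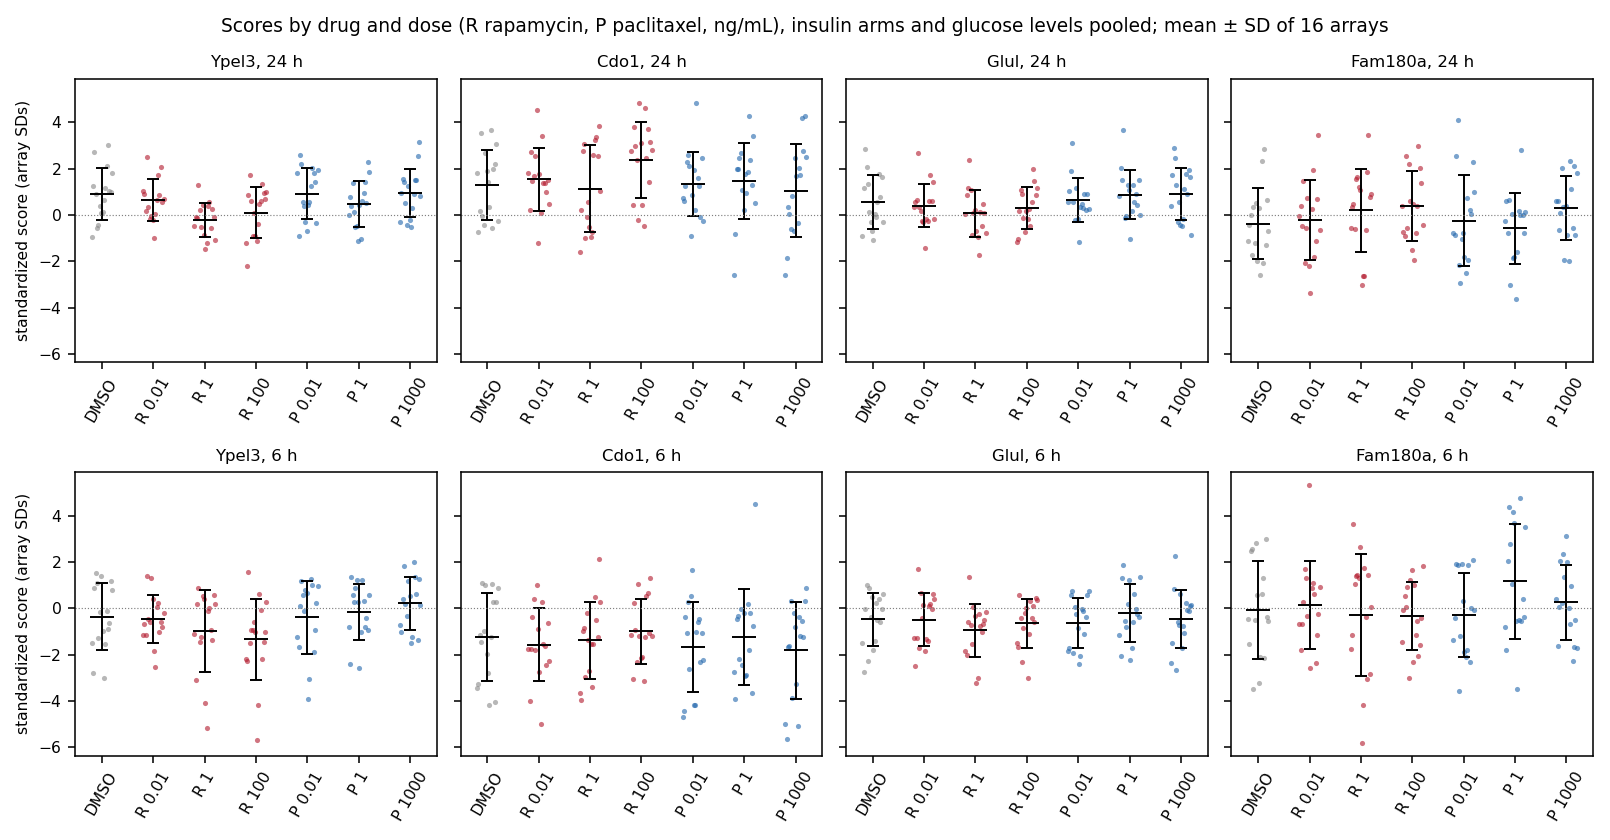
Scores (array SDs, y axis) by drug and dose in ng/mL (x axis; R rapamycin, P paclitaxel), at 24 h in the upper row and 6 h in the lower row, with insulin arms and glucose levels pooled, 16 arrays per column and bars for the mean ± SD. Ypel3 lies lowest at 1 and 100 ng/mL rapamycin, and the other 3 genes show ranges that overlap throughout.

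Cdo1 under rapamycin was not called either. At 24 h it averaged 1.29 ± 1.52 in DMSO, and 1.55 ± 1.36, 1.14 ± 1.87 and 2.39 ± 1.64 at 0.01, 1 and 100 ng/mL (SD, n = 16 each). The top dose lay 1.10 ± 0.515 above DMSO (adjusted p = 0.329 by limma) with all 4 runs above 0. In vehicle cells given that dose, all 8 arrays lay between 2.47 and 4.85, while the 8 DMSO vehicle arrays ran from -0.575 to 3.65. This was the highest of the 28 combinations for Cdo1. Rapamycin at 100 ng/mL lay 1.35 ± 0.515 above paclitaxel at 1000 ng/mL at 24 h (adjusted p = 0.106 by limma). Without run D it was 2.02 (adjusted p = 0.0252) and without run A 0.621 (0.683).

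Glul and Fam180a showed no called drug difference at any dose. The Glul differences from DMSO lay between -0.495 (1 ng/mL rapamycin, 24 h) and 0.346 (1000 ng/mL paclitaxel, 24 h), each with an SE of 0.310. Fam180a reached 1.23 ± 0.565 at 1 ng/mL paclitaxel and 6 h (adjusted p = 0.927 by limma). Paclitaxel at 0.01 and 1 ng/mL called 0% of probes, and at 1000 ng/mL against DMSO 1.32% at 24 h and 0.294% at 6 h. Between doses, 1000 against 1 ng/mL paclitaxel called 1.26% of probes at 24 h and 0.147% at 6 h, and 100 against 1 ng/mL rapamycin 0.0346% at 24 h and 0.0518% at 6 h, again with none of the 4 genes. Drug by hour interactions called 0.0950% of probes for rapamycin and 0.00864% for paclitaxel at the top doses, and none of the 4 genes.

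Glucose gave 1 call. Cdo1 was higher at 25 than at 5 mM glucose at 24 h, in a comparison where 10.0% of probes were called and 5.45% called higher. It ran from -2.60 over 1.96 to 4.85 in 56 arrays at 25 mM and from -1.87 over 0.903 to 4.26 in 56 arrays at 5 mM. The difference was 0.793 ± 0.275 (SE, adjusted p = 0.0459 by limma). Runs A to D gave -0.00407, 0.386, 1.21 and 1.58, so the shift came mostly from runs C and D, and leaving out either ended the call (adjusted p = 0.249 and 0.348). The call also ended with no replicate block (0.0687). The ranges overlapped nearly fully. Among the cell type markers Cnn1 (0.488) and Cd14 (0.516) were also called higher at 25 mM, and their part was not tested.

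At 6 h 3.53% of probes were called for glucose and none of the 4 genes was among them. Cdo1 lay 0.618 ± 0.275 higher at 25 mM (adjusted p = 0.246 by limma). Glul lay lower by -0.460 ± 0.166 (0.108), in 4 of 4 runs, and Fam180a by -0.747 ± 0.302 (0.177), in 3 of 4. Glul was called when the groups compared were fitted alone (0.0453). Without the near-identical arrays Glul lay lower by -0.423 (0.177), Fam180a by -0.728 (0.220), and Cdo1 higher by 0.630 (0.257). In DMSO cells 0.285% of probes were called for glucose at 24 h and 0.0346% at 6 h. There Fam180a averaged 0.731 ± 1.27 at 25 mM and -1.50 ± 0.733 at 5 mM at 24 h (SD, n = 8 each), a difference of 2.23 ± 0.799 (adjusted p = 0.189 by limma) with 4 of 4 runs above 0. The glucose difference did not pass the test for a change between hours in any of the 4 genes (2.40% of probes called). For Fam180a that change was 0.937 ± 0.427 (adjusted p = 0.261 by limma).

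The 4 genes shared part of their pattern over the 56 group means, Fam180a least. Ypel3 and Glul were each other's most similar gene among the named probes, with Pearson r = 0.837. Cdo1 correlated with Glul at 0.720 and with Ypel3 at 0.653, while Fam180a reached 0.472 with Glul, 0.365 with Ypel3 and 0.211 with Cdo1. These correlations hold the insulin and hour differences already described, and the arrays of a run share their processing. The genes were chosen for lower scores with insulin, so positive correlations follow in part from that choice. With the mean of each insulin arm at each hour removed, r fell to 0.399 for Ypel3 with Glul and to -0.146 for Ypel3 with Cdo1. For Cdo1 with Glul it fell to -0.253. Fam180a then had 0.338 with Glul, 0.0490 with Cdo1 and -0.0744 with Ypel3. Between arrays of the same group, the residuals of Ypel3 and Glul still correlated at 0.420, those of Cdo1 and Glul at 0.0606 and those of Cdo1 and Fam180a at -0.0972.

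The share of variance shows how the genes differed among themselves. Over the 224 arrays, 20.1% of the variance of Ypel3 lay between the insulin arms, 13.9% between hours and 9.25% between drug conditions. For Cdo1, 41.2% lay between hours and 10.8% between insulin arms. Glul had 20.0% between hours, 15.4% between insulin arms and 10.6% between runs, the highest run share of the 4. Fam180a had 10.5% between insulin arms and only 0.199% between hours, and the largest residual SD, 1.62 array SDs against 0.879 for Glul.

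The 28 combinations of drug, hour and insulin arm (8 arrays each) were ordered by mean. No neighbours differed by more than the larger of their SDs for any of the 4 genes. The ends of the order lay apart. The genes were chosen for lower scores with insulin, so insulin combinations at the low end and vehicle ones at the high end follow in part from that choice. The 7 lowest combinations were all 6 h insulin for Ypel3, Cdo1 and Glul, and 4 of 7 for Fam180a. The 7 highest were all 24 h vehicle for Cdo1, 5 of 7 for Glul, 4 of 7 for Ypel3 and 1 of 7 for Fam180a.

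Other genes followed the 4 more or less closely across the 56 group means. The 3 most similar to Ypel3 were Glul, the amino acid transporter gene Slc38a2 (r = 0.797) and Stap2 (0.793), and the least similar were Epha4 (-0.723) and Dnph1 (-0.698). Cdo1 was followed most closely by the connexin gene Gja5 (0.903), Stap2 (0.879) and the sphingosine kinase gene Sphk1 (0.873), with Chst10 (-0.895) and Nrp1 (-0.872) at the other end. Beside Ypel3, Glul was followed by the transcription factor gene Etv5 (0.822) and Stap2 (0.813), with Hk1, the glycolytic hexokinase 1 gene (-0.777), and Limk1 (-0.759) lowest. Fam180a had no close match: Gkap1 (0.631), Pcmtd2 (0.623) and Tmem59l (0.599) came first, and Pkm (-0.504) and Cd82 (-0.503) last. Stap2 was in the top 3 of Ypel3, Cdo1 and Glul. With arm means removed the first matches were Sqstm1 for Ypel3 (0.732), Fuca2 for Cdo1 (0.754), Etv5 for Glul (0.671) and Tmem59l for Fam180a (0.636).

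Of 31 symbols listed for genes linked to FOXO factors, 19 were measured. At 6 h 3 of these were called lower with insulin and 1 higher. Their median difference was -0.0934 against 0.00791 over all probes. Over all probes 7.07% were called in that comparison and 3.48% were called lower. Klf15 was lower by -1.12 ± 0.184 (adjusted p = 1.56e-06 by limma), the growth arrest gene Gadd45a by -0.859 ± 0.260 (0.0232) and the cell cycle inhibitor gene Cdkn1b by -0.694 ± 0.159 (0.00120), while the mitophagy gene Bnip3 was higher by 1.93 ± 0.273 (1.70e-08). At 24 h Klf15 (-0.801) and Gadd45a (-0.832) were lower and Cdkn1a was higher (0.610), with a list median of -0.0463 against -0.0136, where 3.98% of all probes were called. At 100 ng/mL rapamycin and 6 h, Tsc22d3 (4.70) and Klf6 (2.50) were higher than in DMSO and Bnip3 (-1.97) lower, where 5.08% of all probes were called. Over hours 4 of the 19 were higher and 5 lower at 24 h, beside 41.3% of all probes called.

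Around Glul, 19 of 29 glutamine and glutamate genes were measured. With insulin at 6 h, Slc38a2, which carries glutamine into cells, was lower by -1.06 ± 0.251 (adjusted p = 0.00186 by limma) and the glutamate dehydrogenase gene Glud1 by -0.432 ± 0.126 (0.0165), while the glutamate transporter gene Slc1a3 was higher by 0.731 ± 0.222 (0.0242). These were 3 of 19, beside 7.07% of all probes called. The list median was 0.128 against 0.00791 over all probes, and at 24 h 0 of 19 were called, beside 3.98%. Under 100 ng/mL rapamycin 2 of 19 were lower than in DMSO at 6 h (Slc38a2 by -1.54, Got2 by -0.650), beside 5.08% of all probes called. At 24 h 4 of 19 were lower, beside 2.25% called: Oat by -1.58, Slc1a5 by -1.33, Glud1 by -0.836 and Got2 by -0.758. At 25 mM glucose and 24 h, 6 were lower, led by Slc7a5 (-2.47), and 1 higher, beside 10.0% of all probes called. Between hours 7 were higher at 24 h and 4 lower, with Slc7a5 at 1.43 and Slc38a2 at 1.18, beside 41.3% of all probes called.

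Around Cdo1, 14 of 26 sulfur amino acid genes were measured and 0 were called with insulin at either hour. Over all probes 3.98% were called at 24 h and 7.07% at 6 h, so 0 of 14 is near those shares. The list medians were -0.0585 at 24 h and 0.0477 at 6 h. At 25 mM glucose and 24 h, where Cdo1 was called, 3 of the 14 were higher and 2 lower, beside 10.0% of all probes called and 5.45% called higher. The taurine transporter gene Slc6a6 was higher by 0.993 ± 0.273 (adjusted p = 0.00720 by limma), and Slc7a11, which imports cystine, was lower by -1.28 ± 0.283 (4.70e-04). Over hours Slc6a6 (1.20) and Slc7a11 (0.913) were higher at 24 h, and Gclm, Suox and Gss lower, so 5 of 14 were called beside 41.3% of all probes.

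Of the 4 other yippee genes listed, 1 was measured. Ypel4 differed by -0.422 ± 0.221 with insulin at 24 h (adjusted p = 0.363 by limma) and by -0.102 ± 0.221 at 6 h (0.869), and by 0.332 ± 0.156 between 24 and 6 h (0.0787). Of 21 genes listed as raised by insulin 13 were measured. Slc2a1, the glucose transporter gene, was higher with insulin at 6 h by 2.00 ± 0.257 (adjusted p = 5.97e-10 by limma). Sqle was higher at 24 h by 0.990 ± 0.289 (0.0267). The others did not pass at the same hour, with list medians of -0.331 at 24 h and -0.191 at 6 h. Over all probes 3.98% were called at 24 h and 7.07% at 6 h, so 1 of 13 at each hour is near those shares. Slc2a1 was lower at 100 ng/mL rapamycin than in DMSO at 6 h, by -2.46 ± 0.481 (1.95e-04). Between hours 8 of the 13 were higher at 24 h and 1 lower, Egr1 by 2.16 and Vegfa by 1.42, beside 41.3% of all probes called and 19.5% called higher.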

How the data were processed

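The authors deposited 1 table of standardized scores for 224 two-colour arrays and 11575 features, with 0 missing values. Per the labels' design text they normalized the arrays by loess, dropped dim features, imputed missing points from nearest neighbours, removed principal components tied to the replicate runs and standardized the data, which can shrink run differences. The log base is not given in the sources used here. Scores were kept as deposited and modelled by 56 group levels plus a run term in limma 3.58.1 (R 4.3.3), which left 165 residual degrees of freedom. Run letters come from the titles, and 2 arrays of one run had residuals whose mean correlation was 0.0210. This mean was 0.0654 for arrays of the same run and hour and -0.0218 for the same run at the other hour. The run term does not model that split, which bears on the hour comparisons. Of 33 tested comparisons, each was adjusted by Benjamini-Hochberg over 11575 probes, two-sided, and called under 0.05. The 4 insulin comparisons gave calls for genes of the lists only. The script was tested on simulated data.

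Probes were named from the platform annotation, which gave 7473 of them 1 symbol. For list and marker genes with several probes, only the first in the deposited order was used. Other probes of those genes are not shown. The genes and lists (yippee, FOXO-linked, sulfur amino acid, glutamine and glutamate, insulin-raised, and markers of 5 cell types) were chosen with earlier results of these data known. Named genes are the 4 members whatever their result, for each the 3 most and 2 least similar genes, and of each list at most 3 called genes per direction and comparison that changed most; Got2, Gclm, Suox and Gss complete small counts. Alternatives changed the block, the replicates, the arrays fitted, the unit and the scaling. Where a title was cut short, the glucose level came from its condition number. The sources differ on dish size, serum and length of quiescence.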

Additional observations from a re-analysis of the deposited data

Results flagged for a closer look

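Within groups of 4 arrays, 1 array stood far from the other 3 in 11 of 224 gene and group combinations, where chance gives about 1 in 20. For Ypel3 these were run B at 0.01 ng/mL paclitaxel, vehicle, 24 h and 5 mM glucose (-0.699, against 1.95 to 2.19 in the other runs), run D at 1 ng/mL paclitaxel, vehicle, 6 h and 25 mM (-0.940, against 1.21 to 1.36), run C at 0.01 ng/mL rapamycin, insulin, 6 h and 5 mM (-2.53, against -0.660 to -0.580) and run C at 1 ng/mL rapamycin, insulin, 6 h and 25 mM (-4.10, against -1.44 to -0.931). For Cdo1 they were run A at 1 ng/mL paclitaxel, insulin, 24 h and 25 mM (-2.60, against 1.79 to 2.45), run D at 1 ng/mL rapamycin, insulin, 24 h and 25 mM (3.37, against -1.62 to -0.966) and run D at 1 ng/mL rapamycin, vehicle, 6 h and 25 mM (2.12, against -1.52 to -0.995). For Glul it was run A at 0.01 ng/mL paclitaxel, vehicle, 24 h and 5 mM (3.09, against -0.174 to 0.303). For Fam180a they were run C at 0.01 ng/mL paclitaxel, vehicle, 6 h and 25 mM (-1.79, against 1.91 to 2.07), run B at 1 ng/mL paclitaxel, insulin, 6 h and 25 mM (2.77, against -0.808 to -0.529) and run B at 0.01 ng/mL rapamycin, vehicle, 6 h and 5 mM (5.32, against 0.272 to 0.918).

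The insulin difference of Cdo1 at 100 minus 0.01 ng/mL rapamycin was -1.70 at 24 h, below 0 in 4 of 4 runs, and 0.787 at 6 h, above 0 in 4 of 4 runs. That difference between hours was not tested, and it was 1 of 60 such pairs of hours looked at.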

How the results depend on the processing

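Each of 132 tested gene results was recomputed under 11 or fewer alternatives, 1436 values in all. The 13 called results kept their sign under every alternative run; they lost the call 27 times, and 6 times an uncalled result was called. Signs turned in 71 values of 46 uncalled results. With the runs as the unit, 1 gene in place of 3 was called between hours over all conditions, 0 in place of 3 in DMSO cells, 1 in place of 3 at 100 ng/mL rapamycin and 1 in place of 2 at 1000 ng/mL paclitaxel; for glucose at 24 h, 0 in place of 1 were called with the runs as the unit (adjusted p of Cdo1 0.287), with no replicate block (0.0687) and with normal scores of ranks (0.0925). With the groups compared fitted alone, 1 gene was called for glucose at 6 h in place of 0 (Glul, 0.0453), and Glul between hours in DMSO cells was not (0.116). With run by hour as the block, 1 gene was called at 1 ng/mL rapamycin and 24 h in place of 0 (Ypel3, 0.0427). Leaving out each run in turn gave 0 to 1 called gene for that dose, for rapamycin 100 against paclitaxel 1000 ng/mL at each hour, for glucose at 24 h and for the glucose difference between hours (without run A, Glul 0.730, adjusted p = 0.0464), and 1 to 3 between hours in DMSO cells and at 100 ng/mL rapamycin. The cause of these changes was not tested. Leaving out the replicate block lost 1 other call (Glul between hours at 100 ng/mL rapamycin, 0.0660) and changed no other count by over 1.5 times, nor did leaving out the near-identical arrays or centring arrays on the median. Spearman correlation and removing the arm means changed the most similar gene in 7 of 8 cases. Run by hour as the block cannot give the hour comparison, and averaging probes was not run because each gene had 1. The number of arrays limits the precision of the insulin by drug tests.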
